A study of Mus musculus with 8 samples.

Results

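The nuclear-encoded subunits of the mitochondrial respiratory chain and of ATP synthase were examined in the hypothalamus of mice made diabetic with streptozotocin, with and without leptin. The members were chosen by gene symbol and by detection, with earlier results of these data known. The rule itself uses no difference between groups. A probe was taken when its symbol in the platform annotation was Cyc1 or one of the succinate dehydrogenase symbols Sdha to Sdhd, or began with Ndufa, Ndufb, Ndufc, Ndufs, Ndufv, Uqcr, Atp5 or Cox4 to Cox8. This gave 108 probes of 86 genes, among 16593 genes with a probe. A probe was kept for testing when its detection p-value, the chance of such a brightness on a negative-control bead, was under 0.05 on at least 2 of the 8 arrays. That left 97 probes of 80 member genes, among 10703 genes with a kept probe, and the kept probe with the highest mean intensity stood for each gene.

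The respiratory chain sits in the inner mitochondrial membrane. Complex I takes electrons from NADH and complex II takes them from succinate; both hand them to ubiquinone, from which complex III passes them to cytochrome c and complex IV to oxygen. Complexes I, III and IV pump protons, and ATP synthase uses the returning protons to make ATP. A small set of subunits holds the flavin, iron-sulphur, haem and copper centres or the rotary catalytic sites, while the many accessory subunits stabilise and assemble the complexes. Several complex IV subunits and the membrane ring subunit of ATP synthase are encoded by more than one gene, with isoforms that differ between tissues. Neurons draw most of their ATP from this chain.

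The array series compared 3 groups of male mice aged 12 to 15 weeks, whose strain the labels give only as mixed. The diabetic group (STZ, replicates 1, 2 and 3) received intraperitoneal injections of streptozotocin, a toxin of insulin-producing beta cells. The leptin group (STZ+leptin, replicates 6, 7 and 8) received streptozotocin and a continuous infusion of leptin, described in the series title as central, and the control group (saline, replicates 4 and 5) is labelled as saline. The text attached to STZ replicate 3 numbers it 1, like STZ replicate 1, and it was taken as STZ from its title. Whether each array came from its own animal is not stated, so the p-values measure the spread between these samples, which may be technical. In bulk tissue, fewer cells of a type cannot be told apart from less RNA per cell.

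Between 13608 and 14776 probes were detected per array, and the number of arrays limits the precision. The median half-width of the 95% interval of a member's log2 difference was 0.59 for STZ minus saline (1.51-fold), 0.53 for STZ+leptin minus STZ (1.44-fold) and 0.59 for STZ+leptin minus saline. Markers of hypothalamic neurons were present, with Pmch, the melanin-concentrating hormone precursor, between 12.69 and 13.95 log2 units on every array. STZ replicate 1 was the lowest array for most members, and the results are also given without it. Arrays differed in neighbouring tissue. The summed linear level of 5 pituitary markers was 76915 in STZ replicate 2 and between 214 and 1073 on the other arrays. That of 9 choroid plexus markers was 15527 and 32171 in saline, 2011, 32638 and 32818 in STZ replicates 1, 2 and 3, and between 2126 and 5470 in STZ+leptin.

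Of the members with a probe, 33 of 34 complex I subunits, 3 of 3 complex II subunits, 8 of 9 of complex III, 16 of 19 of complex IV and 15 of 16 of ATP synthase were kept. The symbols also brought in 5 assembly factors of complex I (Ndufaf1, Ndufaf3, Ndufaf4, Ndufaf5 and Ndufaf7), which are not subunits of the finished enzyme, and all 5 were kept. Ndufa4, named for complex I but now placed in complex IV, was counted with complex IV. The member named Ndufs5-ps carries a pseudogene symbol, and its signal may come from Ndufs5 itself. Detected on 0 arrays, and so not tested, were Ndufs1, the largest iron-sulphur subunit of complex I, Uqcrq of complex III, Atp5k of ATP synthase, and the complex IV isoforms Cox4i2, Cox7b2 and Cox8c. A probe without signal does not show that its gene is not expressed. Just inside the filter were Uqcrfs1, the Rieske iron-sulphur protein, detected on 3 arrays, and Ndufab1, the mitochondrial acyl carrier protein, detected on 4. Sdha and the subunits encoded by mitochondrial DNA were not analysed here.

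With leptin, 3 of the 80 members rose against untreated STZ and 0 fell. They were Cox6a2, the heart and skeletal muscle isoform of complex IV subunit 6A, Atp5g2, a gene for the c subunit of the ATP synthase ring, and Ndufaf1, a factor needed to assemble the membrane arm of complex I. A member passed when its p-value in limma, adjusted with the Benjamini-Hochberg method over all 15494 kept probes, was under 0.05. Across all kept probes 5.62% passed in this comparison, 2.16% higher and 3.45% lower, so the members' share of 3 in 80 lay near that background. At an unadjusted p under 0.05 there were 14 of the 80 members, all higher, against 9.30% of all kept probes higher and 19.4% in either direction. None of the 80 passed in STZ minus saline, and Cox6a2 alone passed in STZ+leptin minus saline.

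Cox6a2 lay at 7.30 and 7.69 log2 units in saline, at 7.30, 8.21 and 8.02 in STZ replicates 1, 2 and 3, and at 11.07, 10.98 and 10.22 in STZ+leptin replicates 6, 7 and 8. All 3 leptin arrays stood above the other 5 with no overlap, while the STZ and saline ranges overlapped. The gene rose by 2.92 ± 0.29 log2 units (moderated standard error of limma) with leptin against STZ, a 7.54-fold difference (95% interval 2.26 to 3.57, adjusted p = 6.98e-04). Against saline it rose by 3.26 ± 0.33, or 9.59-fold (adjusted p = 9.94e-04). STZ against saline differed by 0.35 ± 0.33 (adjusted p = 0.71).

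This profile, in which both leptin comparisons passed in 1 direction while STZ lay within 0.5 log2 units of saline, was shared by 151 of the kept probes, or 0.975%. Of these, 116 were higher with leptin and 35 lower, and 22 had a larger difference from STZ than Cox6a2. The strain of each array beyond mixed is not given in the labels, and its part in the profile was not tested.

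The partner isoform Cox6a1, which is used in most tissues including brain, lay at 13.87 and 14.18 in saline, at 13.27, 14.19 and 14.05 in STZ, and at 14.36, 14.19 and 13.57 in STZ+leptin. Its ranges overlapped in every comparison. It differed by 0.20 ± 0.28 between leptin and STZ (95% interval -0.43 to 0.83, adjusted p = 0.76), and its other kept probe differed by 0.18. The other striated muscle isoforms of complex IV did not pass. Cox7a1, the muscle form of subunit 7A, differed by 0.70 ± 0.37 (adjusted p = 0.35), and Cox8b, the muscle and brown fat form of subunit 8, by -1.77 ± 0.91 (adjusted p = 0.33).

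Atp5g2 lay at 9.95 and 10.19 in saline, at 9.25, 9.24 and 10.13 in STZ, and at 11.17, 11.12 and 10.59 in STZ+leptin. The leptin arrays were above both other groups, and STZ replicate 3 lay within the saline range. The gene rose by 1.42 ± 0.26 with leptin against STZ, or 2.67-fold (adjusted p = 0.015). Without replicate 2, 6 or 7 its adjusted p was 0.057, 0.059 and 0.059. Against saline it differed by 0.89 ± 0.29 (adjusted p = 0.25).

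Atp5g1 and Atp5g3 encode the same mature c subunit as Atp5g2 behind different import sequences. Atp5g1 lay at 12.84 and 13.27 in saline, at 12.41, 13.25 and 13.15 in STZ and at 13.22, 13.33 and 12.93 in STZ+leptin, so the groups overlapped. It differed by 0.22 ± 0.24 between leptin and STZ (adjusted p = 0.68). Atp5g3 lay at 14.61 and 14.66 in saline, at 14.19, 14.66 and 14.44 in STZ, and between 14.71 and 14.75 in STZ+leptin. Its leptin arrays stood just above the other 5, by a difference from STZ of 0.31 ± 0.14 that did not pass (adjusted p = 0.28).

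Ndufaf1 lay at 10.14 and 9.82 in saline, at 9.74, 9.86 and 9.97 in STZ, and at 10.69, 10.58 and 10.79 in STZ+leptin. The leptin arrays did not overlap with either group. The gene rose by 0.83 ± 0.14 against STZ, or 1.77-fold (adjusted p = 0.0096, lost in 1 of 20 other settings, at 0.061). Against saline it differed by 0.71 ± 0.16 (adjusted p = 0.061), and the leave-one-out and other settings placed that value between 0.020 and 0.50. The other 4 assembly factors of the family differed from STZ by 0.13 to 0.25, and none passed.

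**Figure D1:**
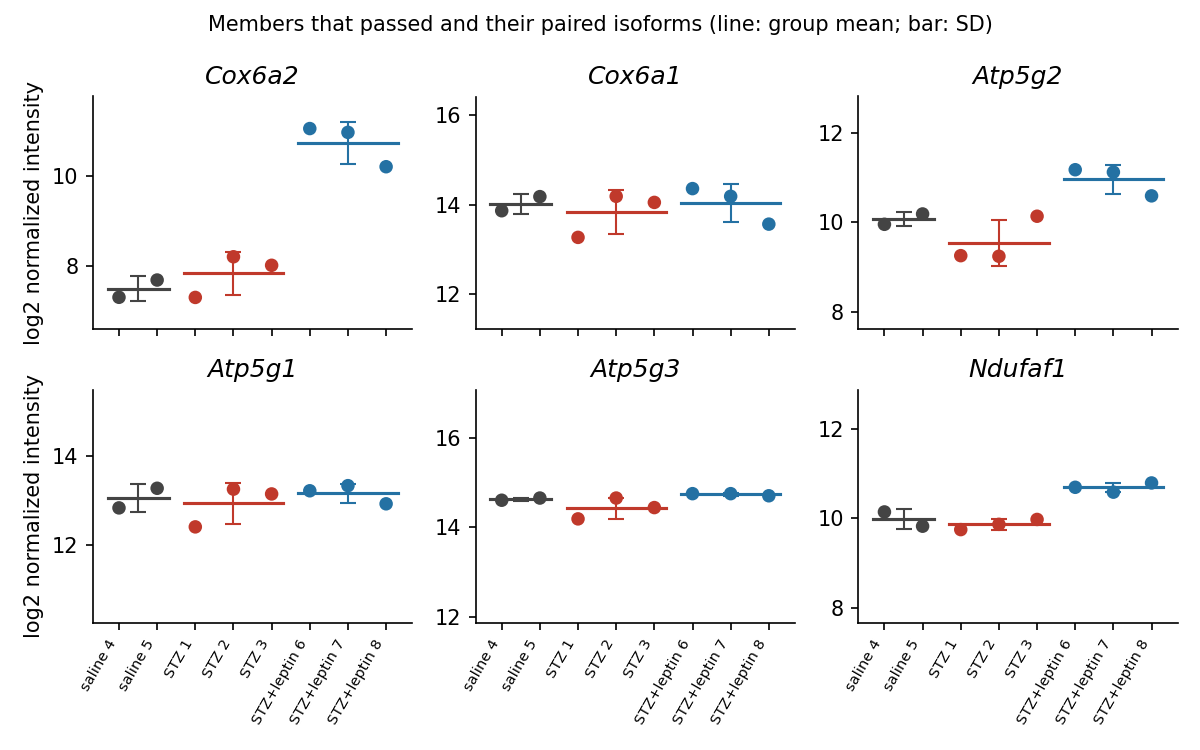
Normalised log2 intensity (y axis, a log scale that does not start at 0) of Cox6a2, Atp5g2 and Ndufaf1 and of the partner isoforms Cox6a1, Atp5g1 and Atp5g3 on each of the 8 arrays (x axis), with the group mean as a line and the SD as a bar. All panels span the same number of log2 units, and the 3 leptin arrays lie clear of the others for Cox6a2, Atp5g2 and Ndufaf1.

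Promoters of respiratory chain genes are known for sites of the nuclear respiratory factor NRF1, of the ETS-family factor GABPA and of YY1. RefSeq promoters of GRCm38.p6, each running from 250 bases before to 50 after a transcription start, were found for 68 of the 80 kept members, 73 promoters in all. Shown here are those of Atp5g2 and Ndufaf1, because both rose with leptin, and of Cox6a1 as the partner of Cox6a2. No promoter was found for Cox6a2. Also shown is that of Ndufb4, a member far below saline on a single STZ array. Atp5e lay lower on that array, and its promoter held an ETS match and no NRF1 match. Only the 250 bases before the start are given, 5′ to 3′ on the gene's strand. Capitals mark matches on either strand to the NRF1 core (GCGC on both sides of any 2 bases), to the full NRF1 site, which is the core with AT in the middle and so counts under both, and to the ETS letters CCGGAAG, which appear as their reverse complement where the match is on the opposite strand.
Atp5g2, chr15:102671048-102671297, minus strand: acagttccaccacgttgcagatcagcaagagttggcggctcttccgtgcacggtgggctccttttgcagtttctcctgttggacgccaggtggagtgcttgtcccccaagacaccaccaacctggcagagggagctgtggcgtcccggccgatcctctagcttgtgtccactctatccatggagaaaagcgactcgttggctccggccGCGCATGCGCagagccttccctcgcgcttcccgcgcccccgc
Cox6a1, chr5:115348959-115349208, minus strand: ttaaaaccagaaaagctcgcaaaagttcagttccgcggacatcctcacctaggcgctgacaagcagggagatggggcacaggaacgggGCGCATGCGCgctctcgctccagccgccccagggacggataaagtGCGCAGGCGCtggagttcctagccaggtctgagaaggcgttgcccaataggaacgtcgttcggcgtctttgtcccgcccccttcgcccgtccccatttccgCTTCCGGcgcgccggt
Ndufaf1, chr2:119662835-119663084, minus strand: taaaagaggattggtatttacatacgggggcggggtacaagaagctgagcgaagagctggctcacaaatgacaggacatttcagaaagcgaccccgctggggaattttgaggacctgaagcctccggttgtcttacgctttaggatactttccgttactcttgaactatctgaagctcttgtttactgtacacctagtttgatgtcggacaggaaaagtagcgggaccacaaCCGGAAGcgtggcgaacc
Ndufb4, chr16:37654369-37654618, minus strand: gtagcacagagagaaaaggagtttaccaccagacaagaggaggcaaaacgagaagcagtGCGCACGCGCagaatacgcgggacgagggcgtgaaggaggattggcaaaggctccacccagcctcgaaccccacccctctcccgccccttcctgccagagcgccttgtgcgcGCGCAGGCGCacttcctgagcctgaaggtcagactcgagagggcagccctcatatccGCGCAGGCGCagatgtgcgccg

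The Atp5g2 promoter held the full NRF1 site beginning 42 bases before the start. That of Cox6a1 held the full site at 162 bases, a further NRF1 core at 117 and an ETS site at 16. In Ndufaf1 the match was an ETS site at 18 bases, and Ndufb4 had NRF1 cores at 191, 79 and 22 bases. Among the 73 member promoters, 24.7% held the NRF1 core, against 11.5% of the 11229 promoters of genes with a kept probe and 6.23% of all 32851. The full NRF1 site was found in 6.85% of member promoters, against 1.67% and 0.971%. The ETS site was present in 21.9% (15.1% and 8.86%), and the YY1 core AAGATGG in 15.1% (6.79% and 6.34%). At least 1 motif was present in 40 of 73 member promoters, or 54.8%, against 29.3% of promoters of genes with a kept probe.

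The median difference between leptin and STZ was 0.33 over the 39 genes with a motif and 0.37 over the 29 without one, and the median on STZ replicate 1 against the saline mean was -0.68 and -0.67. For the full NRF1 site alone, the median difference was 0.14 over 5 genes with it and 0.37 over 63 without, and the median on STZ replicate 1 was -0.44 and -0.68. These are matches of letters in a window, given as a description.

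Taking the members as a list, their differences between leptin and STZ leaned upward. The median log2 difference was 0.37, against 0.03 over all kept probes, and 68 of the 80 lay above 0, against 54.2% of all kept probes. In 10 members the leptin arrays all lay above the STZ arrays and in 0 members below, where 12.0% and 11.1% of all kept probes did so. By complex, the median was 0.41 in ATP synthase (15 genes), 0.38 in complex I (33), 0.36 in complex IV (16), 0.23 in the 5 assembly factors, 0.18 in complex III (8) and -0.01 in complex II (3).

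**Figure D2:**
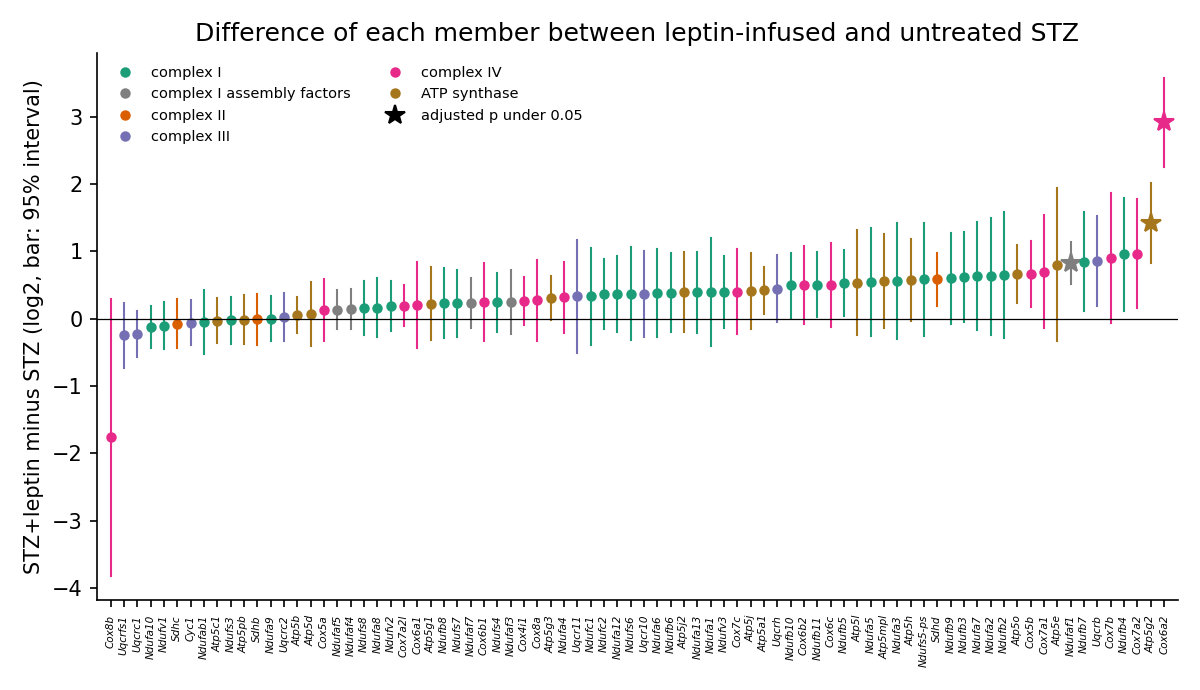
Log2 difference of each of the 80 members between STZ+leptin and STZ (y axis), ordered from lowest to highest along the x axis and coloured by complex. Bars are the 95% intervals of the fit, most of which reach 0, and stars mark the 3 members that passed.

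The subunits of a core list and the other subunits had different medians. For complex IV that list holds Cox5a and Cox5b, and it has no subunit encoded by mitochondrial DNA. The other subunits are not all accessory, since they include the ring genes Atp5g1, Atp5g2 and Atp5g3. For 20 catalytic, metal-binding or structural core subunits the median difference was 0.06, with 12 above 0, and 0 passed. For the 55 other subunits it was 0.40, with 51 above 0, and 2 passed. The difference between these medians was not tested.

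In complex I the core subunits differed from STZ by -0.10 to 0.23, below the median of 0.38 over the complex. Some accessory subunits lay in that range too, such as Ndufb8 (0.23) and Ndufa8 (0.16). Ndufv1, which binds NADH and flavin, lay at 13.84 and 13.54 in saline, at 13.93, 13.62 and 13.62 in STZ, and at 13.62, 13.47 and 13.76 in STZ+leptin, a difference from STZ of -0.10 ± 0.15. The groups overlapped. The iron-sulphur subunits Ndufs7, Ndufs8 and Ndufv2 differed by 0.23, 0.16 and 0.19, and Ndufs3, a core subunit of the matrix arm, by -0.03. Ndufb4, an accessory subunit of the membrane arm, lay at 7.21 and 7.53 in saline, at 5.89, 7.43 and 7.19 in STZ and at 7.80, 8.15 and 7.42 in STZ+leptin. Its difference of 0.95 ± 0.37 (adjusted p = 0.20) rested largely on STZ replicate 1, and STZ replicate 2 lay above STZ+leptin replicate 8. Ndufb7, the complex I member of lowest p, differed by 0.85 ± 0.32 (adjusted p = 0.19).

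Complex II also takes part in the citric acid cycle. Sdhd, a membrane anchor of that complex, lay at 9.10 and 8.997 in saline, at 8.71, 8.99 and 8.96 in STZ, and at 9.19, 9.42 and 9.80 in STZ+leptin. The leptin arrays stood above the others, by 0.58 ± 0.17 against STZ (adjusted p = 0.100). Sdhc, the other anchor, differed by -0.08 ± 0.16. Sdhb, the iron-sulphur subunit, differed by -0.01 ± 0.17 on its brightest probe and by 0.17 on the next. A dimmer probe, detected on 6 arrays and near the detection limit, passed with a difference of 0.77 ± 0.14 (adjusted p = 0.016), so the probes of this gene disagree.

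In complex III the subunits that carry electrons or form the core did not pass. Cyc1, the haem protein cytochrome c1, differed by -0.06 ± 0.15, and the core proteins Uqcrc1 and Uqcrc2 by -0.23 ± 0.15 and 0.02 ± 0.16. Uqcrfs1, detected on 3 arrays, differed by -0.25 ± 0.21. Uqcrb, an accessory subunit, lay at 10.69 and 11.25 in saline, at 10.22, 11.14 and 11.26 in STZ, and at 11.75, 12.05 and 11.38 in STZ+leptin. Its leptin arrays were the highest 3 of 8, and the difference of 0.86 ± 0.30 did not pass (adjusted p = 0.15).

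In complex IV, Cox4i1, the regulatory subunit 4 of most tissues, differed by 0.25 ± 0.16 (adjusted p = 0.43) and Cox5a by 0.13 ± 0.20. Cox5b, which binds zinc, lay at 13.80 and 14.07 in saline, at 13.30, 14.05 and 13.76 in STZ, and at 14.52, 14.50 and 14.07 in STZ+leptin. The leptin arrays were above all STZ arrays, by 0.66 ± 0.21 (adjusted p = 0.12). Cox7a2, the subunit 7A of non-muscle tissue, differed by 0.96 ± 0.36 (adjusted p = 0.17), Cox7b by 0.90 ± 0.42 (adjusted p = 0.29), and Ndufa4 by 0.31 ± 0.23. Cox7a2l, which takes part in joining complexes III and IV, differed by 0.19 ± 0.14, and Cox6b1, Cox6b2 and Cox8a by 0.24, 0.49 and 0.27.

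Cox8b varied most among the members. It lay at 5.27 and 7.22 in saline, at 5.20, 9.14 and 7.67 in STZ, and at 5.83, 6.12 and 4.77 in STZ+leptin. STZ replicate 2 was highest and the groups overlapped in every comparison. Ttr, the transthyretin transcript that defines choroid plexus, was low on STZ replicate 1 (8.74) and on the leptin arrays (9.62 to 11.97), and high on STZ replicates 2 and 3 (14.77 and 14.84) and in saline (13.71 and 14.75). The summed linear level of the 9 choroid plexus markers was 15527 in saline replicate 4 and 32171 in saline replicate 5. All 9 choroid plexus markers with a probe were kept, and 0 of 9 passed in any comparison. In all 9 the leptin arrays lay below both saline arrays, where 20.2% of all kept probes did so. The median difference of these markers from saline was -1.49. The part of the choroid plexus markers in the Cox8b values was not tested.

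In ATP synthase, Atp5b of the catalytic head and Atp5c1 of the central stalk differed by 0.06 ± 0.12 and -0.03 ± 0.15. Atp5a1, which forms the head with Atp5b, lay at 10.55 and 10.51 in saline, at 10.52, 10.02 and 10.08 in STZ, and at 10.61, 10.54 and 10.73 in STZ+leptin. The leptin arrays were above all STZ arrays and overlapped with saline, and STZ replicates 2 and 3 were below saline while replicate 1 lay within it. The difference from STZ was 0.42 ± 0.16 (adjusted p = 0.18). Without STZ replicate 1, an array singled out from the members' values, it was 0.58 and passed (adjusted p = 0.026). Atp5o, the oligomycin sensitivity protein of the stalk, lay at 9.79 and 9.73 in saline, at 8.96, 9.68 and 9.55 in STZ, and at 10.18, 10.08 and 9.91 in STZ+leptin. Each leptin array was above each other array, by 0.66 ± 0.19 against STZ (adjusted p = 0.091). Atp5d and Atp5e of the central stalk differed by 0.07 ± 0.21 and 0.80 ± 0.50.

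Where 2 or more probes of a member were kept, 11 of 13 genes gave differences of 1 sign in this comparison. The exceptions were Sdhb and Ndufv3, a small matrix-arm subunit, whose probes differed by 0.51, 0.40 and -0.60.

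Diabetes alone gave no member that passed. In STZ minus saline 0 of the 80 passed in limma and 0 had an unadjusted p under 0.05, where 4.29% of all kept probes passed (3.98% higher and 0.310% lower) and 14.4% had an unadjusted p under 0.05. The median difference was -0.18, against -0.09 over all kept probes, and 73 members lay below 0. In 8 members all STZ arrays lay below both saline arrays, against 19.5% of all kept probes, and in 0 all lay above, against 12.0%. Medians by complex ran from -0.27 in the assembly factors to -0.11 in complex III. The lowest values were those of Cox7a1 (-0.58 ± 0.41), Atp5e (-0.56 ± 0.56), Ndufb4 (-0.53 ± 0.42), Atp5g2 (-0.53 ± 0.29) and Ndufb10 (-0.51 ± 0.24), and Ndufb10, an accessory subunit of complex I, had the lowest adjusted p (0.38). The highest were those of Cox8b (1.09 ± 1.01) and Cox6a2.

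In STZ+leptin minus saline, Cox6a2 was the member that passed, against 2.03% of all kept probes in either direction and 1.62% higher, and 4 members had an unadjusted p under 0.05, against 11.9%. The median was 0.13, against -0.04 over all kept probes, with 56 members above 0 and 24 below. In 9 members the leptin arrays lay above both saline arrays and in 4 below them, where 13.9% and 20.2% of all kept probes did so. Uqcrb differed by 0.76 ± 0.33 (adjusted p = 0.42). The 3 comparisons share their arrays in pairs, so the values of a member in them are not independent.

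**Figure D3:**
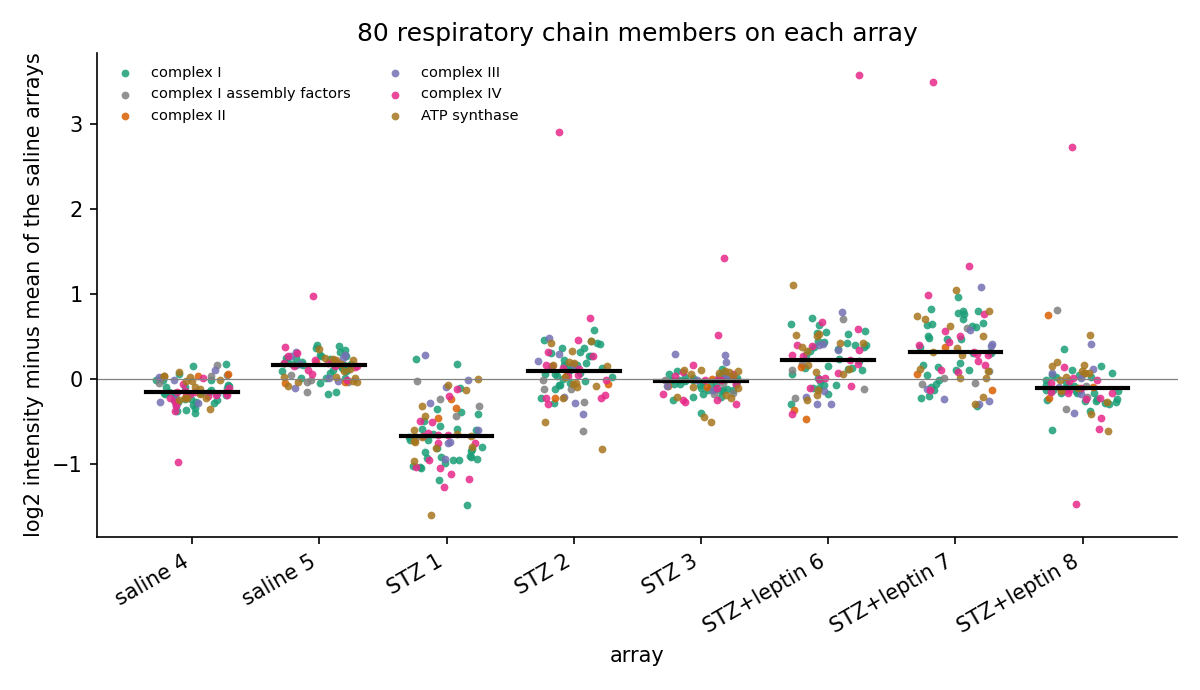
Log2 intensity of the 80 members minus each member's mean over the 2 saline arrays (y axis) on each array (x axis), coloured by complex, with the median as a black line. STZ replicate 1 lies lowest, with a median of -0.68, and Cox6a2 and Cox8b give the highest single points.

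STZ replicate 1 stood apart from the other arrays. Against the saline mean, the median of the members was -0.68 on STZ replicate 1, 0.09 on STZ replicate 2 and -0.03 on STZ replicate 3. It was -0.16 and 0.16 on the saline arrays and 0.22, 0.32 and -0.10 on STZ+leptin replicates 6, 7 and 8. On STZ replicate 1 77 of the 80 members lay below the saline mean, and for 65 of 80 this array was the lowest of 8, against 16.6% of all kept probes. Over all kept probes its median was -0.02. Quantile normalization gives all arrays the same distribution, so this median is held near 0 and cannot show whether other genes moved.

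The members furthest below the saline mean on STZ replicate 1 were Atp5e (-1.60), Ndufb4 (-1.48) and Cox7a1 (-1.27), while Uqcrc1 (0.28), Ndufv1 (0.24) and Ndufa10 (0.18) lay above it. The 55 subunits outside the core list had a median of -0.76 there and the 20 core subunits one of -0.36. Complex I lay at -0.82, complex IV at -0.71, ATP synthase at -0.67, complex III at -0.44, and complex II and the assembly factors at -0.34 and -0.32.

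Other lists moved with the members on this array. The 54 cytosolic ribosomal protein genes had a median of -0.54 against the saline mean on STZ replicate 1, 0.42 and 0.16 on STZ replicates 2 and 3, and 0.38, 0.46 and -0.01 on the leptin arrays. The 71 mitochondrial ribosomal protein genes lay at -0.53 on STZ replicate 1 and between -0.07 and 0.19 on the other arrays. The 15 genes of pyruvate dehydrogenase and the citric acid cycle, which feed the chain with NADH and succinate, lay at 0.01 there. For 12 markers of hypothalamic neurons the median was -0.47 on STZ replicate 1 and 0.43, 0.55 and -0.02 on the leptin arrays. With leptin against STZ 4 of the 12 (Pmch, Hcrt, Cartpt and Gal) rose, against 2.16% of all kept probes, and 4 lay below 0. Their summed linear level was 37093 to 44606 in saline, 37366 to 44276 in STZ and 45719 to 59474 in STZ+leptin. For 11 markers of neurons in general the median was -0.22, -0.31 and -0.22 on STZ replicates 1, 2 and 3. It was -0.13, -0.07 and -0.10 on the leptin arrays. Of the 11, 1 rose with leptin against STZ, where 2.16% of all kept probes did. The part of either marker list in the members' values was not tested.

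Markers of microglia and macrophages followed the groups instead. Of 9 kept, 6 rose in STZ against saline, where 3.98% of all kept probes did. With leptin, 2 of the 9 fell against STZ, where 3.45% of all kept probes did. Against saline, 5 of the 9 passed as higher with leptin, where 1.62% of all kept probes did. Their summed linear level was 2472 to 2834 in saline, 11716 to 16631 in STZ and 9473 to 10788 in STZ+leptin. Their part in the members' values was not tested.

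**Figure D4:**
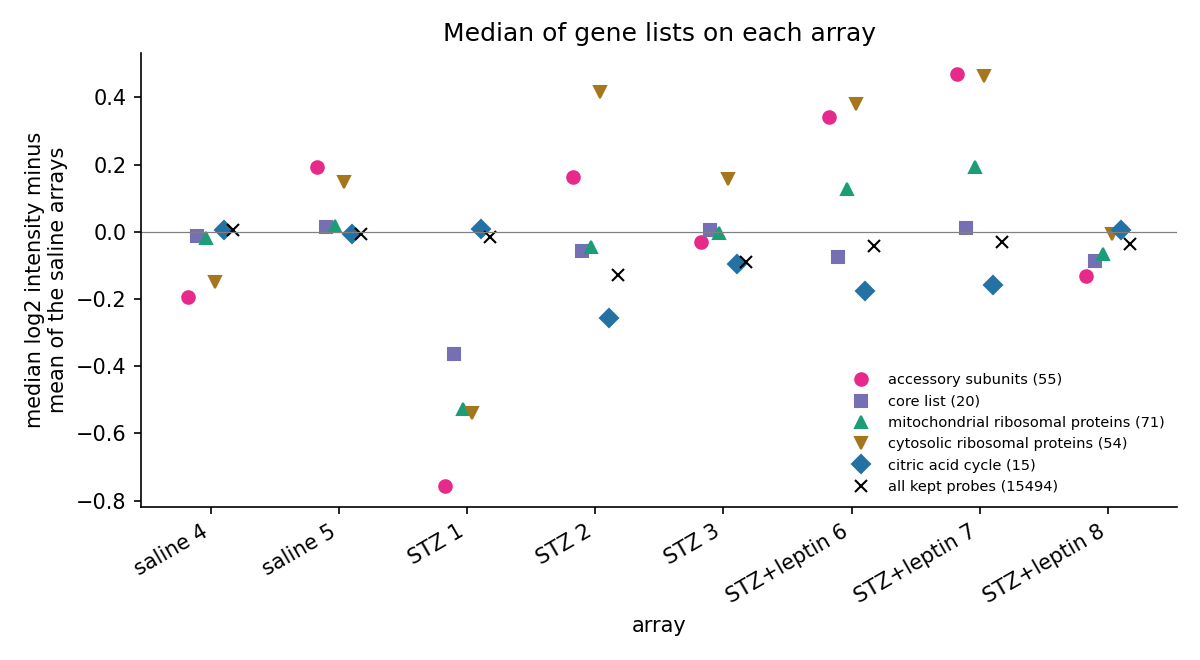
Median log2 intensity minus the mean of the saline arrays (y axis) for 5 gene lists and all kept probes on each array (x axis), with the number of genes or probes in brackets. The list labelled accessory subunits is the 55 subunits outside the core list. On STZ replicate 1 it lies at -0.76, both ribosomal lists near -0.5 and the citric acid cycle list near 0. All kept probes also lie near 0, where the normalization holds their median.

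Without STZ replicate 1, the lean of the members was smaller. The median difference between leptin and STZ was 0.11, against 0.05 over all kept probes, with 57 of 80 above 0. Its parts were 0.18 in ATP synthase, 0.16 in complex IV, 0.09 in complex I, 0.06 in the assembly factors, 0.003 in complex III and -0.13 in complex II. For the core subunits it was -0.03 and for the other subunits 0.16. STZ minus saline then had a member median of 0.004, against -0.11 over all kept probes, with 40 of 80 below 0.

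Cox6a2, Atp5g2 and Ndufaf1 also passed without this array, at 2.66, 1.28 and 0.77. Atp5a1 passed as well, and Cox8b fell by 2.83 (adjusted p = 0.044), for 5 members in all, 4 higher and 1 lower, where 7.91% of all kept probes passed. STZ replicate 1 was singled out after the members' values were seen, so calls gained without it are a description. Cox8b was detected on 2 of the leptin arrays. The summed choroid plexus level was 32638 and 32818 in the STZ arrays left, replicates 2 and 3, and 2126 to 5470 in STZ+leptin. The part of this tissue difference in the Cox8b call was not tested. Ndufb4 differed by 0.48 in place of 0.95.

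**Figure D5:**
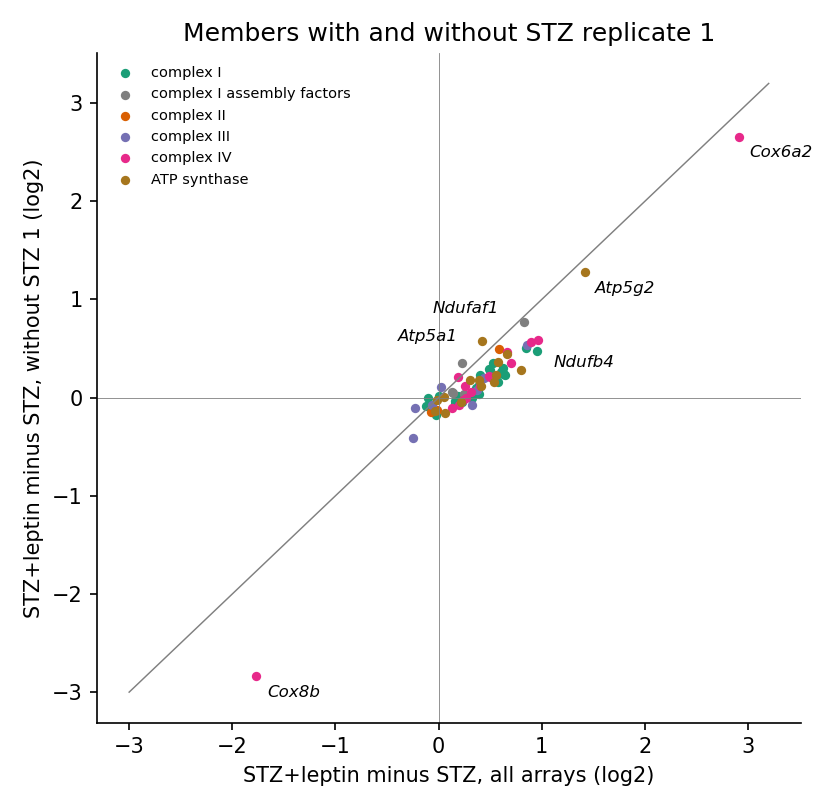
Log2 difference of each member between STZ+leptin and STZ from all arrays (x axis) and without STZ replicate 1 (y axis), coloured by complex, with equality drawn as a line. Most members lie below the line, Cox6a2 (2.66 without that array), Atp5g2 (1.28) and Ndufaf1 (0.77) among them.

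Genes that build, feed or regulate the chain were read beside the members. Of 36 kept assembly factors, Ndufaf1 included, 3 rose with leptin against STZ and 0 fell. Of all kept probes, 2.16% rose and 3.45% fell in this comparison. Timmdc1, an assembly factor of complex I, lay at 7.92 and 8.02 in saline, at 7.58, 7.80 and 7.69 in STZ, and at 9.54, 8.22 and 9.51 in STZ+leptin. It rose by 1.40 against STZ (adjusted p = 0.036), the leptin arrays stood above the others, and replicate 7 lay closer to saline than the other leptin arrays did. Tmem70, which assembles ATP synthase, rose by 0.66 (adjusted p = 0.028). Over 20 other settings the adjusted p rose above 0.05 in 11 for Timmdc1 (highest 0.12) and in 6 for Tmem70 (highest 0.13).

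Among 20 electron carriers, transporters and synthase-associated proteins, 1 rose with leptin against STZ and 0 fell. Of all kept probes, 2.16% rose and 3.45% fell. The gene that rose was Coq2, which attaches the side chain in ubiquinone synthesis. It lay at 10.90 and 11.02 in saline, at 11.00, 10.85 and 10.88 in STZ, and at 11.62, 11.73 and 11.62 in STZ+leptin. The leptin arrays did not overlap with the others, at 0.75 above STZ (adjusted p = 0.0075) and 0.69 above saline (adjusted p = 0.032). The call against STZ was lost in 1 of 20 other settings (0.060) and that against saline in 8, among them without any 1 of replicates 3 to 8 (highest 0.35).

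Among 18 regulators of these genes, 1 rose and 1 fell against STZ, where 2.16% and 3.45% of all kept probes did so. Ppargc1a, the coactivator PGC-1α that drives mitochondrial gene expression in muscle and brown fat, lay at 7.40 and 7.38 in saline, at 7.43, 7.21 and 7.06 in STZ, and at 6.45, 6.39 and 6.65 in STZ+leptin. All leptin arrays were below the other 5. It fell by 0.73 against STZ (adjusted p = 0.018) and by 0.90 against saline (adjusted p = 0.021). Over 20 other settings its call against STZ was lost in 4, among them without replicate 2, 6 or 7 (highest 0.077), and that against saline in 5, among them without replicate 4, 5, 6 or 7 (highest 0.21). Tfb1m, which methylates mitochondrial ribosomal RNA, rose by 0.83 against STZ (adjusted p = 0.011). Nrf1, Gabpa, Esrra and Tfam, which encode transcription factors of respiratory chain genes and of mitochondrial DNA, did not pass.

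The citric acid cycle list had 0 of 15 genes past the threshold and a median of 0.02 between leptin and STZ. Among 10 genes against reactive oxygen or for uncoupling, 0 passed. Of all kept probes, 5.62% passed with leptin against STZ. The mitochondrial ribosomal list had a median of 0.24, with Mrpl55 higher (1.22, adjusted p = 0.042) and Mrps10 lower (fell by 0.64, adjusted p = 0.036), calls lost in 11 and 10 of the 20 other settings. The cytosolic ribosomal list, which has no part in respiration, had a median of 0.27 with 50 of 54 above 0, and Rpl3l, a ribosomal protein of striated muscle, rose by 1.22 (adjusted p = 0.023, lost in 4 of 20 other settings).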

How the data were processed

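The deposited raw table gives a linear bead-summary intensity per probe and array and, per the file headers, a detection p-value beside it. The authors' processed table holds log2 values, medians 6.90, that rank probes as the raw columns do; what made it is not stated in the labels, and it served as an alternative. Normalization used neqc (offset 16, quantiles, log2) in limma 3.58.1 under R 4.3.3. A mean per group was fitted to the 8 arrays with lmFit and eBayes (5 residual degrees of freedom), and p-values were adjusted by Benjamini-Hochberg over 15494 of 25697 probes. Symbols come from the platform annotation. Fits were tested on simulated data.

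Named are members that passed, the 5 highest and 5 lowest and the lowest p of each complex per comparison, core subunits, paired isoforms, members at the detection limit, and companion genes that passed. Members, lists and tests were chosen with earlier results of these data known. Alternatives covered normalization, filters, probe choice, weights, a replicate block and each array left out.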

Additional observations from a re-analysis of the deposited data

How the results depend on the processing

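In STZ minus saline 0 members passed under all 20 other settings. With leptin against STZ 3 passed under 9 of the 12 settings other than leaving out 1 array. Of these 12, 1 fitted only the arrays of the groups compared. The number was 4 with a robust trend and 6 with array weights, which added Atp5a1 (0.51, adjusted p = 0.025), Atp5o (0.56, adjusted p = 0.029) and Cox5b (0.64, adjusted p = 0.037). Leaving out 1 array gave 2 to 5. Same-numbered arrays correlated between -0.22 and 0.09 in their deviations from group means, others between -0.32 and 0.32. The deviations of the 2 saline arrays mirror each other. These values therefore cannot decide whether the replicate numbers of the labels pair the arrays. With the replicate block 2 members passed, since Ndufaf1 had an adjusted p of 0.061, the calls of Coq2 and Ppargc1a were lost in both leptin comparisons, and of all kept probes 336 passed for STZ minus saline in place of 664, and 474 for STZ+leptin minus STZ in place of 870. With leptin against saline, 2 members (Cox6a2 and Ndufaf1) passed in place of 1 with the authors' processed values, without background correction, with normexp and an offset of 50, with array weights and with a robust trend; leaving out 1 array gave 1 to 2. Leaving out 1 array moved the member median between -0.34 and 0.004 in STZ minus saline, 0.11 and 0.57 in STZ+leptin minus STZ, and -0.002 and 0.33 in STZ+leptin minus saline; the other settings gave -0.34 to -0.07, 0.27 to 0.52 and 0.11 to 0.20. Of all kept probes, 1659, 1859 and 714 passed with array weights and 332, 552 and 183 with detection under 0.01 on all arrays; leaving out 1 array gave 278 to 1029, 481 to 1225 and 111 to 423 (664, 870 and 314 in the main analysis). No result turned its direction while called. The causes were not tested. With 2 or 3 arrays a group, dim probes such as those of Uqcrfs1 and Ndufab1 bear no firm statement.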
